A study of Mus musculus with 5 samples.

Results

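The genes described here are 6 fibroblast growth factor (FGF) ligands, Fgf8, Fgf17, Fgf10, Fgf3, Fgf15 and Fgf4, and the 4 receptor tyrosine kinases Fgfr1, Fgfr2, Fgfr3 and Fgfr4. They were chosen by gene name, 10 of the 49671 genes in the count table, and all 10 were among the 12067 genes that passed the filter on low counts. RNA was sequenced from the epiblast and visceral endoderm (VE) of 5 single mouse embryos at E6.75, 2 control (SO+) and 3 Oct4-deleted (SO-) embryos, all of mixed strain background. The SO- embryos were Sox2Cre+/-; Oct4 fl/-. The SO+ embryos were labelled WT, which in the paper's cross matches Sox2Cre-/-; Oct4 fl/+, the class without Cre. The paper's SO+ group also pools embryos that are functionally heterozygous for Oct4, with or without Cre. Every embryo had an Oct4 fl/fl mother and so inherited a floxed Oct4 allele. Sox2Cre recombines mainly in the epiblast, so the VE of an SO- embryo is not a deleted tissue to the same extent, and Oct4 protein is lost gradually and unevenly between cells around the stage sampled.

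FGF ligands bind receptors together with heparan sulfate at the cell surface, and the dimerised receptors signal through adaptors and RAS to a cascade of kinases, which switches on its own inhibitors, such as the Sprouty genes. In the gastrulating mouse embryo, Fgf8 from the primitive streak is needed for cells to move away from the streak, and Fgfr1 is the receptor whose loss gives a similar defect. Fgf4 is a classical target of Oct4 and Sox2 in pluripotent cells, in which both factors bind side by side in an enhancer at the end of the gene.

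The question that the comparison answers is which FGF ligands and receptors were higher or lower after Oct4 deletion, and whether the mixture of ligands differed. Fgf8, Fgf17 and Fgf10 rose in SO- embryos, by between 2.39 and 3.52 times in mean CPM (the reads of a gene scaled to a common library total of 1000000). Fgf4 and Fgf15 were lower in every SO- embryo than in either SO+ embryo, as were 15.6% of all genes tested. Fgf4 and Fgf15 were at 0.300 and 0.521 of the SO+ mean, but their differences did not pass the edgeR test. No receptor passed it, and the receptors overlapped between the genotypes.

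The enhancer element of Fgf4 is shown because it is the sequence of a member gene that Oct4 is known to use. A search of 58797 transcripts for the SOX word CTTTGTT followed after 0 to 3 bases by the POU words ATGCTAAT or ATGCAAAT, on both strands, found a match in 3 of 21901 protein-coding genes, 0.0137%. Fgf4 was the only member among the 3, and the other two were Lrrc71 and Ncapg2. The words were chosen from knowledge of this element, so the match in Fgf4 describes where it lies and tests nothing. The Fgf4 match is on the plus strand in exon 3, in the 3′ UTR, 1453 bases after the stop codon, at chr7:144864394-144864411 of GRCm38, and capitals mark the SOX word, the spacer of 3 bases and the POU word.
Fgf4 element: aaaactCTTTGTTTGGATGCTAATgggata

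Among the 6 members with a RefSeq promoter, taken as the 250 bases before the annotated start, Fgf10 alone held the shorter POU word TGCAAAT, which occurred in 3.56% of 32851 promoters on either strand. The full words ATGCAAAT (1.60% of promoters), ATGCTAAT (0.828%) and CTTTGTT (5.03%) were in none of the 6. The Fgf10 promoter is shown because Fgf10 was one of the members that rose. It lies on the plus strand at chr13:118714449-118714698 of GRCm38.p6, with the word in capitals 90 bases before the start.
Fgf10 promoter: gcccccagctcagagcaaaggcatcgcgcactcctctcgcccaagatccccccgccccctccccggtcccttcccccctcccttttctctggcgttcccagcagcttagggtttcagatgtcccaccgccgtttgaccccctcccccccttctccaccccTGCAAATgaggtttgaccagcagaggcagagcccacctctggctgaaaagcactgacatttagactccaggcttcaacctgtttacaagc

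Before the members, the deleted gene was examined. Oct4, listed as Pou5f1, was at 920.2 and 435.3 CPM in the SO+ embryos, against 27.8, 12.5 and 43.7 CPM in the SO- embryos, a log2 fold change of −4.43 (SE 0.33, adjusted p = 3.94e-05 by edgeR's quasi-likelihood test). The libraries differed in depth, with 27047148 to 27538119 counts in SO+ and 1117566 to 4191498 in SO-, a ratio of mean depth of 8.67. With a limit of 3 counts, a count of 0 allows up to 2.68 CPM in SO- embryo 2 and at most 0.726 CPM in the other embryos. The two-sided Poisson intervals used for levels end higher for a count of 0, at 3.30 CPM in SO- embryo 2, and these limits and the intervals given here cover counting error only. The labels give 1 second index sequence for both SO+ libraries and another for all 3 SO- libraries, so the index and the genotype cannot be told apart.

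Markers of the tissues were read beside the members. Summed over 8 epiblast markers, SO+ embryos held 5027 to 5895 CPM and SO- embryos 2492 to 3609 CPM. Dnmt3b was the largest part of this sum, at 3623 CPM on average in SO+ and 1814 CPM in SO-, so the sum mainly follows that gene. Fgf5 and Sox2 were higher on average in SO-, and the rest of the list was lower. In this list 3 of 8 passed the test, namely Utf1, Dnmt3b and Slc7a3, all lower in SO-, where 0.928% of all genes tested were called lower. Sox2 was at 7.68 ± 0.28 (SD, n = 2) and 11.1 ± 1.58 CPM (n = 3) and did not pass. The 10 VE markers summed to 2907 to 3271 CPM in SO+ and 2852 to 4605 CPM in SO-, with a median log2 fold change of 0.41 and 0 of 10 called. SO- embryos 1 and 2, at 4605 and 4498 CPM, were above both SO+ embryos and SO- embryo 3, at 2852 CPM, was below them, while the marker Hnf4a was higher in all SO- embryos (adjusted p = 0.113 by edgeR). The 8 primitive streak and mesoderm markers summed to 514 to 792 CPM in SO+ and 562 to 749 CPM in SO-, with 0 of 7 tested markers called. The 8 markers of extra-embryonic ectoderm, a tissue removed at dissection and a known site of response to FGF4, stayed between 15.6 and 19.7 CPM in every embryo, with 0 of 4 tested markers called. The defining marker Elf5, which was not tested, was at 0.109 and 0.185 CPM in SO+ and at 0.484, 0 and 2.62 CPM in SO- embryos, from at most 11 counts. Blood and maternal markers summed to at most 4.88 CPM, and 4 of 7 were at 0 in all embryos. The part of the lower epiblast sum and of the VE sum in the members' values was not tested, and in bulk RNA fewer cells of a type and less RNA per cell cannot be told apart.

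Fgf8 (ENSMUSG00000025219, chr19:45736798-45742915, minus strand, GRCm38) was the most abundant member. It was at 137.7 and 123.1 CPM in the SO+ embryos, from 3792 and 3329 counts. In the SO- embryos it was at 306.2, 332.9 and 294.6 CPM, from 1266, 372 and 1235 counts. Every SO- embryo was therefore above both SO+ embryos, with a gap much wider than the spread within either genotype, 130.4 ± 10.3 (SD, n = 2) against 311.2 ± 19.6 CPM (n = 3). The log2 fold change was 1.26 (SE 0.11) with an adjusted p of 1.25e-04 by edgeR's quasi-likelihood test with Benjamini-Hochberg adjustment over all genes tested. Leaving out each embryo in turn moved it only between 1.18 and 1.33, and the call held in all 14 alternative analyses.

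Fgf17 (ENSMUSG00000022101, chr14:70636203-70642268, minus strand) encodes a close relative of FGF8 that binds the same receptor forms. It was at 3.78 and 6.03 CPM in SO+ embryos, against 19.8, 15.2 and 16.7 CPM in SO- embryos. The genotypes did not overlap, and the lowest SO- embryo, with 17 counts, had a 95% Poisson interval of 8.86 to 24.4 CPM, above both SO+ values. The log2 fold change was 1.84 (SE 0.35) with an adjusted p of 0.0138 by edgeR, the widest rise of the 3 members called. The adjusted p became 0.0556 without SO+ embryo 1, 0.171 without SO- embryo 1 and 0.119 without SO- embryo 2, at log2 fold changes of 1.54, 1.71 and 1.90.

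Fgf10 (ENSMUSG00000021732, chr13:118669791-118792115, plus strand) encodes a ligand best known from the mesenchyme of lung and limb, where it acts on a splice form of FGFR2 in the neighbouring epithelium. It was at 24.1 and 28.4 CPM in SO+ embryos, against 72.8, 74.3 and 44.4 CPM in SO- embryos. All SO- embryos were above both SO+ embryos, and SO- embryo 3 stood nearest to them. The VE marker sum was likewise higher in SO- embryos 1 and 2 than in SO- embryo 3, and its part in the Fgf10 values was not tested. The log2 fold change was 1.26 (SE 0.22) with an adjusted p of 0.00925 by edgeR. The call was lost in limma-voom (adjusted p = 0.0615), and in edgeR without SO- embryo 1 (0.166) and without SO- embryo 2 (0.169). Those edgeR fits called 46 and 35 genes in all, against 283 with every embryo. The log2 fold change of Fgf10 remained between 1.11 and 1.48 when any embryo was left out.

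**Figure D1:**
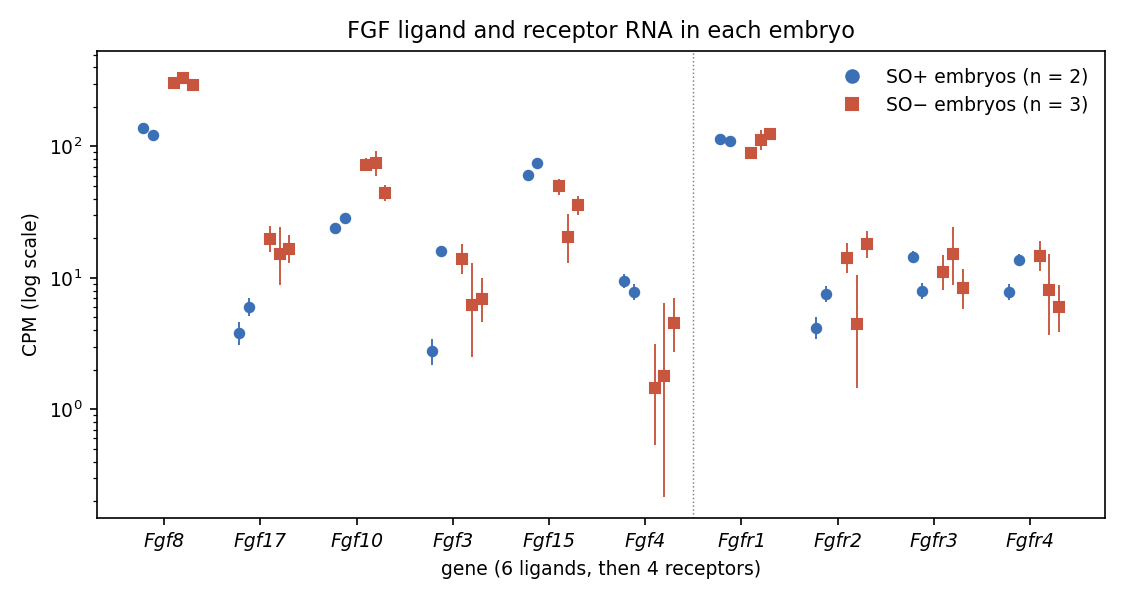
CPM of each ligand and receptor in each embryo on a log axis, with SO+ embryos as circles and SO- embryos as squares, and bars for the 95% Poisson counting interval. Fgf8, Fgf17 and Fgf10 lie higher in all SO- embryos, Fgf15 and Fgf4 lie lower, and Fgf3 and the 4 receptors overlap.

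Fgf3, Fgf4 and Fgf15 are neighbours on chromosome 7, all on the plus strand within 62.9 kb, with 2.9 kb between Fgf3 and Fgf4 and 31.3 kb between Fgf4 and Fgf15. The 3 ligands did not share one pattern across the embryos. Fgf4 and Fgf15 were lower in each SO- embryo, whereas the Fgf3 values of the genotypes overlapped.

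Fgf4 (ENSMUSG00000050917, chr7:144847367-144865243) is secreted by the early epiblast and maintains trophoblast stem cells. It was at 9.44 and 7.84 CPM in SO+ embryos, from 260 and 212 counts, and at 1.45, 1.79 and 4.53 CPM in SO- embryos, from 6, 2 and 19 counts. The genotypes did not overlap, with means of 8.64 ± 1.13 (SD, n = 2) and 2.59 ± 1.69 CPM (n = 3), but SO- embryo 3 held about 3 times the CPM of SO- embryo 1. With so few reads the 95% Poisson intervals were wide, 0.533 to 3.16 CPM for SO- embryo 1, 0.217 to 6.46 CPM for SO- embryo 2 and 2.73 to 7.08 CPM for SO- embryo 3. The log2 fold change was −1.63 (SE 0.50, adjusted p = 0.140 by edgeR), and −2.48 with an adjusted p of 0.0517 without SO- embryo 3. It was below 0 in all 14 alternatives, between −2.51 and −1.24.

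Fgf15 (ENSMUSG00000031073, chr7:144896531-144900953) is the mouse counterpart of human FGF19, later a gut hormone that restrains bile acid synthesis. It was at 60.5 and 74.6 CPM in SO+ embryos, against 49.6, 20.6 and 35.5 CPM in SO- embryos. All SO- embryos were below both SO+ embryos, and SO- embryo 1 stood nearest to them. The log2 fold change was −0.85 (SE 0.24) with an adjusted p of 0.1003 by edgeR. It passed the threshold in DESeq2, the tool of the study's methods (log2 fold change −0.87, adjusted p = 0.0414), and in edgeR without SO+ embryo 1 (−0.99, adjusted p = 0.0322). An antisense gene, Gm26793, shares exonic positions with Fgf15 and held 58 and 58 counts in SO+ and 4, 1 and 4 in SO- embryos. These counts are not scaled for depth, and the ratio of mean depth, SO+ over SO-, was 8.67. Another antisense gene, Gm39119, also shares exonic positions with Fgf15, and its counts are not given here. Whether strand was used in counting is not given in the sources used here.

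Fgf3 (ENSMUSG00000031074, chr7:144838083-144844436), known for its role in the inner ear and tail, had the widest spread relative to its mean among the 6 ligands in control embryos. It was at 2.76 and 16.0 CPM in the SO+ embryos, against 14.0, 6.26 and 6.92 CPM in the SO- embryos. The SO- values all lay between the SO+ values, and the log2 fold change was 0.026 (SE 0.60, adjusted p = 0.995 by edgeR). It changed sign with DESeq2 or with the embryo left out, from −0.74 without SO+ embryo 1 to 1.78 without SO+ embryo 2, and no direction can be given.

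In all, 3 of the 10 members were called higher and 0 lower, where 1.42% of all genes tested were called higher and 0.928% lower. For genotypes that did not overlap the counts were 3 members higher and 2 lower, against 13.9% and 15.6% of all genes tested. The median log2 fold change of the members was 0.0031 and that of all genes tested −0.0019.

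**Figure D2:**
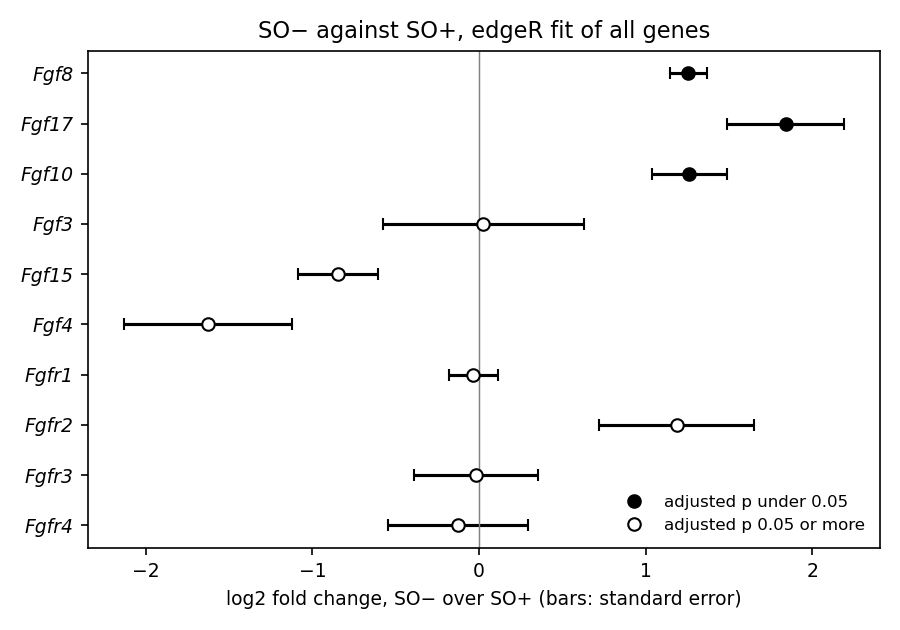
Log2 fold change of each member, SO- over SO+, from the edgeR fit of all genes, with bars of 1 standard error and filled points for an adjusted p under 0.05. Fgf8, Fgf17 and Fgf10 are filled and above 0, while Fgf4 at −1.63 has the lowest value and is not filled.

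**Figure D3:**
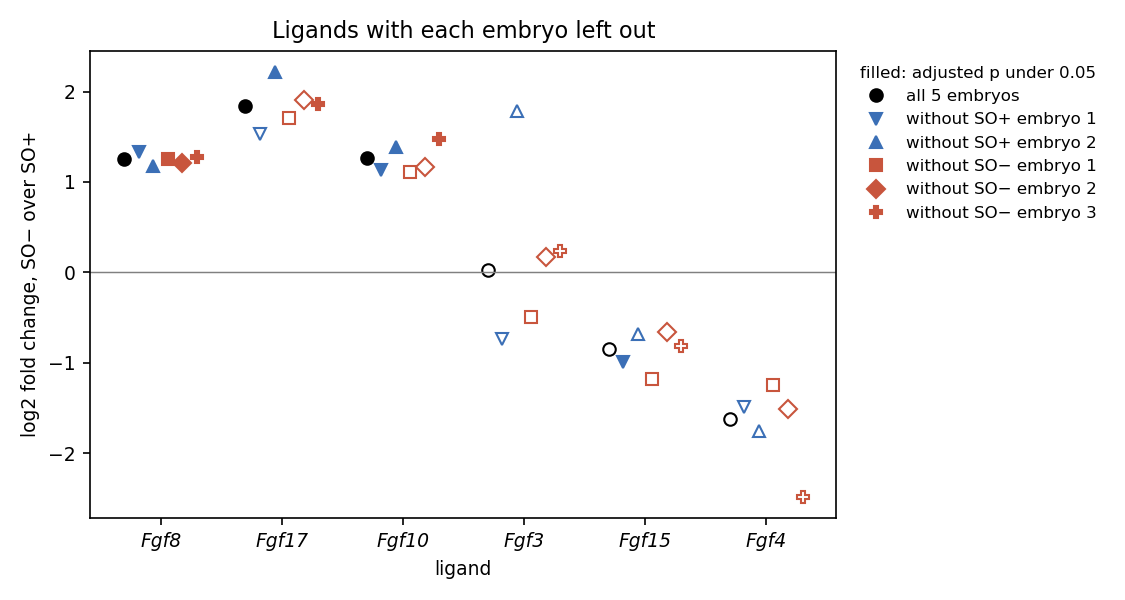
Log2 fold change of the 6 ligands in the fit of all 5 embryos and in fits that omit a single embryo, filled where the adjusted p was under 0.05. Fgf8 stays filled throughout, Fgf17 and Fgf10 lose the call without SO- embryo 1 or 2, Fgf17 also without SO+ embryo 1, and Fgf3 crosses 0.

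The mixture of ligands within an embryo was compared next, since a share does not depend on the depth of the library. Fgf8 made up 57.8% and 48.1% of the reads of the 6 ligands in SO+ embryos, against 66.0%, 73.8% and 73.2% in SO- embryos. The Wilson 95% intervals of the nearest embryos did not touch, 56.6 to 59.0% in SO+ embryo 1 and 63.9 to 68.1% in SO- embryo 1. The mean share was 52.9% ± 6.85 (SD, n = 2) in SO+ and 71.0% ± 4.33 (n = 3) in SO-, a difference of 18.1 percentage points that lay beyond the spread of either genotype. In an exact two-sided permutation test of the 10 ways to divide 5 embryos into 2 and 3, p was 0.1, the smallest this design allows (0.15 adjusted over 6 ligands).

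Fgf15 differed in the other direction by about as much among the 6 ligands, with 25.4% and 29.2% of ligand reads in SO+ embryos, against 10.7%, 4.56% and 8.83% in SO- embryos. Shares have a fixed total, so a higher Fgf8 level by itself lowers the shares of the other ligands. The Fgf15 level was lower too but was not called (adjusted p = 0.1003 by edgeR). Fgf4 was 3.96% and 3.06% in SO+ embryos, against 0.313%, 0.397% and 1.13% in SO- embryos. Fgf17 was 1.58% and 2.35% in SO+ embryos, against 4.28%, 3.37% and 4.15% in SO- embryos. For each of these 3 ligands the genotypes did not overlap and the exact permutation p was again the minimum of 0.1 (0.15 adjusted over 6 ligands). The Fgf10 share overlapped, at 10.1% and 11.1% against 15.7%, 16.5% and 11.02% (exact permutation p = 0.3), even though the Fgf10 level itself rose, and the Fgf3 share overlapped too (exact permutation p = 0.7).

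**Figure D4:**
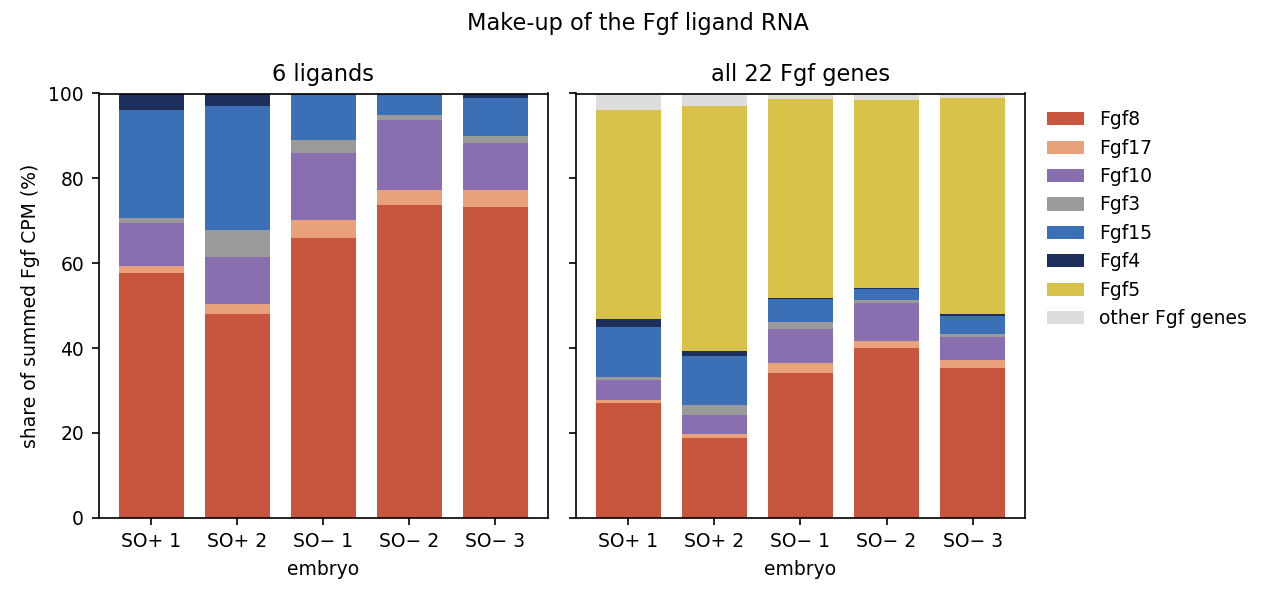
Stacked shares of each ligand in the reads of the 6 ligands (left) and of all 22 Fgf genes (right), in percent, for each embryo. On the left Fgf8 takes 48.1 to 57.8% in SO+ and 66.0 to 73.8% in SO-, with a narrower Fgf15 band in SO-, and on the right Fgf5 takes the largest share in every embryo.

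The 6 ligands leave out Fgf5, so the shares were also taken over all 22 Fgf genes. There Fgf8 averaged 22.99% in SO+ and 36.5% in SO-, higher by 13.5 points, and Fgf15 averaged 11.7% and 4.09%, a smaller difference of −7.59 points (exact permutation p = 0.1 for each, 0.367 adjusted over 22 genes). The Fgf10 share did not overlap on this base, at 4.74% and 4.36% in SO+ embryos, against 8.13%, 8.92% and 5.31% in SO- embryos (exact permutation p = 0.2, 0.55 adjusted).

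Reads favour long transcripts, so the shares of the 6 ligands were also taken per exon length. On this scale Fgf8 was 76.5% and 67.7% of the 6 ligands in SO+ embryos, against 81.9%, 87.5% and 86.0% in SO- embryos, and Fgf15 averaged 16.5% in SO+ and 4.27% in SO-. The exact permutation p was 0.1 for both, the smallest possible.

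The reads of Fgf8 for each read of Fgf4 differed most among the 4 ligand ratios compared. The ratio was 14.6 and 15.7 in the SO+ embryos. It was 211, 186 and 65.0 in the SO- embryos, with exact 95% counting intervals of 96.7 to 576, 51.1 to 1542 and 41.4 to 108. All 3 intervals lay above both SO+ ratios, and the mean log2 ratio was higher by 3.17, or 9.03-fold (exact permutation p = 0.1, 0.167 adjusted over the 10 sums and ratios compared). The ratio of Fgf8 to Fgf15 was 2.27 and 1.65 in SO+ and 6.18, 16.2 and 8.29 in SO- embryos (exact permutation p = 0.1, 0.167 adjusted). By contrast, the ratio of Fgf8 to its relative Fgf17 overlapped, at 36.5 and 20.4 against 15.4, 21.9 and 17.6 (exact permutation p = 0.3, 0.333 adjusted).

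The ligands summed to more RNA in SO- embryos. The 6 ligands together were at 238.3 and 255.9 CPM in SO+ embryos, against 463.9, 451.0 and 402.7 CPM in SO- embryos, 1.78 times as much (exact permutation p = 0.1, 0.167 adjusted). Fgf8 and Fgf17 together were at 135.3 ± 8.75 CPM (SD, n = 2) in SO+ and 328.5 ± 18.5 CPM (n = 3) in SO-. This difference of 193.2 CPM was about that of the 6 ligands, 192.1 CPM, because the other ligands offset each other. Fgf10 was higher, at 26.2 and 63.8 CPM on average in SO+ and SO-, and Fgf3, Fgf4 and Fgf15 together differed by −38.7 CPM. The 3 ligands of the chromosome 7 cluster together were at 72.7 and 98.4 CPM in SO+ and at 65.1, 28.6 and 47.0 CPM in SO- embryos, which did not overlap (exact permutation p = 0.2, 0.286 adjusted).

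The order of the ligands was read per length, as CPM divided by the exon length in kilobases (FPKM). In SO+ embryos Fgf8 came after Fgf5, the epiblast ligand that also times the hair cycle, at 96.6 ± 7.66 and 125.5 ± 35.7 FPKM (SD, n = 2), and these neighbours did not differ beyond their spread. Fgf15 followed at 22.1 FPKM, Fgf10 at 5.70, Fgf3 at 4.03, Fgf17 at 2.90 and Fgf4 at 2.70, and from Fgf10 down to Fgf4 each overlapped the next ligand in the order. In SO- embryos Fgf8 came first, at 230.5 ± 14.5 FPKM (n = 3), above Fgf5 at 161.8 ± 12.2 FPKM without overlap. Fgf10 at 13.9, Fgf15 at 11.5 and Fgf17 at 10.2 FPKM then formed a group of overlapping neighbours, and Fgf3 at 3.90 and Fgf4 at 0.811 FPKM were the lowest members.

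Fgf5 itself was at 250.8 and 376.9 CPM in SO+ and 420.1, 369.6 and 424.4 CPM in SO- embryos, which overlapped (log2 fold change 0.38, SE 0.15, adjusted p = 0.274 by edgeR, 0.00286 without SO+ embryo 2). Fgf5 is also an epiblast marker, but the list of epiblast markers had a median log2 fold change of −0.62. The ratio of Fgf8 to Fgf5 therefore compares 2 transcripts and does not correct for epiblast content. This ratio was 0.549 and 0.327 in SO+ embryos, against 0.729, 0.901 and 0.694 in SO- embryos, higher by 0.86 in mean log2 ratio (exact permutation p = 0.1, 0.167 adjusted).

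Most of the remaining Fgf genes were at or near 0. Of the 16 Fgf genes besides the members, 2 passed the filter, and neither was called. Fgf13, which encodes an intracellular protein of the family rather than a secreted ligand, was at 12.6 and 16.7 CPM in SO+ and 7.74, 8.95 and 7.16 CPM in SO- embryos, without overlap (log2 fold change −0.91, SE 0.32, adjusted p = 0.200 by edgeR). The related Fgf11 was at 4.03 and 0.407 CPM in SO+ and at 1.21, 0 and 1.67 CPM in SO- embryos, and was not tested. Fgf14 had 44 and 12 counts in SO+ and 0 in each SO- embryo, where a count of 0 allows 0.726, 2.68 and 0.716 CPM, against 1.60 and 0.444 CPM in SO+, so that a difference was not detectable in every pair of embryos at this depth. Fgf6, Fgf20 and Fgf23 had no count in any embryo.

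None of the 4 receptors was called or free of overlap between the genotypes. Fgfr1 (ENSMUSG00000031565, chr8:25513654-25575718), the main receptor of the epiblast, was at 113.0 and 109.3 CPM in SO+ and at 89.5, 112.7 and 123.3 CPM in SO- embryos. The SO+ values lay within the range of the SO- values, with a log2 fold change of −0.034 (SE 0.15, adjusted p = 0.963 by edgeR), which was 0.090 without SO- embryo 1. The 4 receptors summed to 139.4 and 138.6 CPM in SO+ and 129.6, 140.5 and 155.8 CPM in SO- embryos (exact permutation p = 0.8, 0.8 adjusted over 10).

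Fgfr2 (ENSMUSG00000030849) was the receptor with the largest log2 fold change. It was at 4.18 and 7.58 CPM in SO+ and at 14.3, 4.47 and 18.1 CPM in SO- embryos. SO- embryos 1 and 3 were above both SO+ embryos, while SO- embryo 2, with 5 counts, was between them, and the log2 fold change was 1.18 (SE 0.46, adjusted p = 0.258 by edgeR). In the annotation Fgfr2 shares exonic positions with Ctbp2, so its counts are uncertain, while the antisense genes that share exonic positions with Fgf10 and Fgfr1 had 0 counts in every embryo. The reads of Fgfr1 for each read of Fgfr2 numbered 27.1 and 14.4 in SO+ and 6.27, 25.2 and 6.80 in SO- embryos, which overlapped (exact permutation p = 0.3, 0.333 adjusted over 10).

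Fgfr3 (ENSMUSG00000054252, chr5:33721674-33737068), later a brake on bone growth, was at 14.5 and 7.95 CPM in SO+ and 11.1, 15.2 and 8.35 CPM in SO- embryos. Fgfr4 (ENSMUSG00000005320, chr13:55152640-55168759), the receptor that answers FGF15 in liver, was at 7.81 and 13.8 CPM in SO+ and 14.8, 8.05 and 5.96 CPM in SO- embryos. Both overlapped, with log2 fold changes of −0.020 (SE 0.37, adjusted p = 0.994) and −0.13 (SE 0.42, adjusted p = 0.949) by edgeR, and both changed sign when single embryos were left out. Per length Fgfr1 was the highest receptor in both genotypes, at 11.3 FPKM in SO+ and 10.99 FPKM in SO-, followed by Fgfr4 (3.04 and 2.71 FPKM), Fgfr3 (1.56 and 1.62 FPKM) and Fgfr2 (0.569 and 1.19 FPKM) by mean. In SO- embryos the last 3 receptors overlapped their neighbours in this order, and SO- embryo 3 had Fgfr2 at 1.76, Fgfr4 at 1.68 and Fgfr3 at 1.17 FPKM.

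The rest of the pathway was read from 5 lists of 79 genes, of which 59 passed the filter on low counts. Of these, 4 were called higher and 0 lower, where 1.42% of all genes tested were called higher and 0.928% lower. Of the 59, 15 were above and 6 below both SO+ embryos in every SO- embryo, against 13.9% and 15.6% of all genes tested. The median log2 fold change of the 59 was 0.13, against −0.0019 for all genes tested. Without SO- embryo 1 or without SO- embryo 2 none of these genes was called, and without SO+ embryo 1 only Il17rd was. Those fits called 46, 35 and 180 genes in all, against 283 with every embryo.

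Of 14 tested co-receptors and ligand-binding genes, 1 was called higher, where 1.42% of all genes tested were. This was Gpc3, a cell surface heparan sulfate proteoglycan, at 542.4 and 624.7 CPM in SO+ and 918.1, 902.0 and 721.7 CPM in SO- embryos (log2 fold change 0.54, SE 0.12, adjusted p = 0.0313 by edgeR). The VE marker sum was likewise lowest in SO- embryo 3 among the SO- embryos, and its part in the Gpc3 values was not tested. The related Gpc4 was at 126.3 and 157.4 CPM on average and was not called. None of 12 tested heparan sulfate enzymes was called, with Ugdh at 99.1 and 93.2 CPM and Ext2 at 59.2 and 71.8 CPM on average. None of 18 tested adaptors and kinases was called, with Nras at 235.8 and 243.7 CPM on average in SO+ and SO-.

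Among 13 feedback and target genes, 3 inhibitors of the pathway were called higher, where 1.42% of all genes tested were, with a list median of 0.39. Spry1 had a log2 fold change of 0.91 (adjusted p = 0.0123), Spry4 of 1.07 (0.0256) and Il17rd of 0.83 (0.0120) by edgeR, while Dusp6, a phosphatase that restrains the pathway, was at 190.2 and 268.7 CPM on average (0.51, adjusted p = 0.0820) and the transcription factor Etv5 at 312.5 and 230.9 CPM (−0.41, adjusted p = 0.147).

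**Figure D5:**
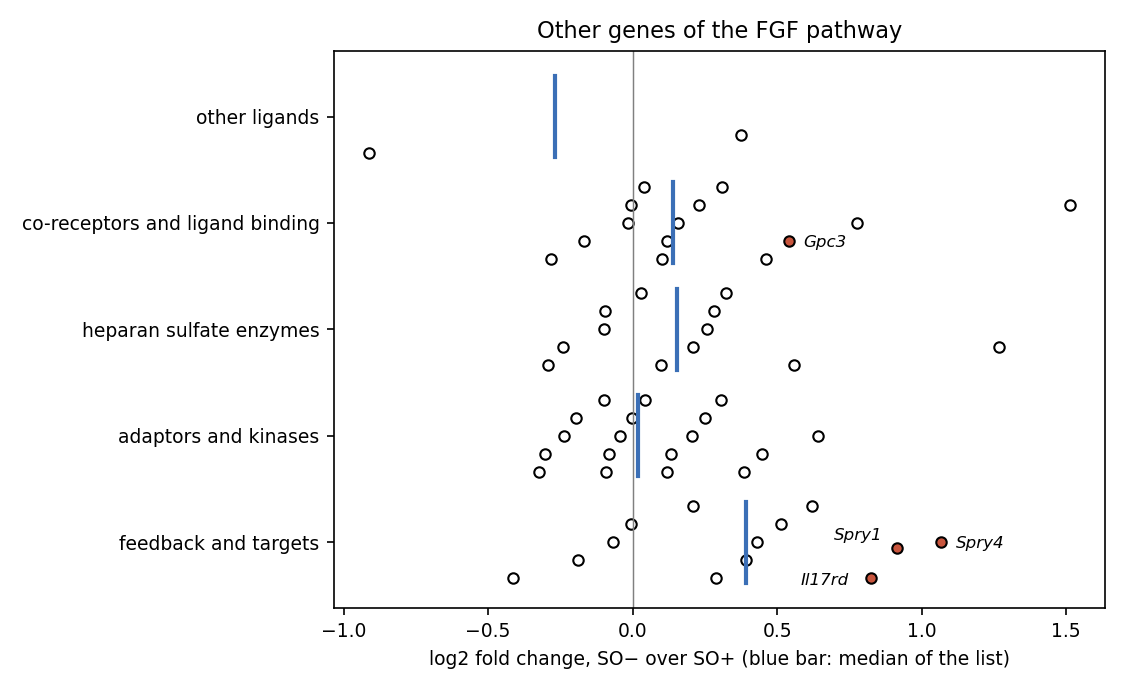
Log2 fold change, SO- over SO+, of the tested genes in 5 lists of the FGF pathway, with a bar at each list's median and the called genes filled and named. The 4 called genes, Gpc3, Spry1, Spry4 and Il17rd, all lie above 0.

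The genes whose course over the 5 embryos was nearest to that of a member were found among 9305 genes, by the root mean square difference of log2 CPM after centring each gene. For Fgf8 these were Rreb1 (0.057), Igtp (0.102) and Mov10 (0.120). Their log2 fold changes were 1.15, 1.36 and 1.14, against 1.26 for Fgf8. A member that differs by genotype draws genes with a like genotype difference, and shared regulation was not tested. For Fgf10 the nearest genes were Igf2 (0.070), Tmem185a (0.103) and Prtg (0.130), and for Fgf17 they were Flt1 (0.095), Parp10 (0.117) and Tapbp (0.129). The nearest to Fgf4 were Far2 (0.178), Sh3gl3 (0.260) and Bcat1 (0.299), which were farther from it than the nearest genes of the other members were from theirs. Fgf4 had only 6, 2 and 19 counts in the SO- embryos, and the part of counting error in these distances was not tested.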

How the data were processed

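RNA from 5 single embryos was made into libraries by SmartSeq2, which selects polyadenylated RNA and amplifies it without molecular identifiers. The authors aligned reads to GRCm38/mm10 with STAR and counted those in genes with HTSeq-count. The counts were deposited as whole numbers, not normalized. The strand setting and removal of duplicate reads are not given in the sources used here.

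Counts were tested in R 4.3.3 with edgeR 4.0.16 by the quasi-likelihood test, after TMM scaling and filterByExpr and with no term besides genotype. P-values were adjusted by Benjamini-Hochberg over 12067 genes, with a threshold of 0.05. The SE of a log2 fold change was its size over the root of the F statistic. CPM used library totals, and FPKM the union of exons of GENCODE M21 on GRCm38. Sums, shares and ratios were tested by exact two-sided permutation over embryos. Promoters came from RefSeq (GRCm38.p6), which matched 6 of 10 members, without Fgf8, Fgf15, Fgf17 and Fgfr1. The script for the fit was tested on simulated counts. There edgeR called 85 of 94 tested genes changed by 2 log2 units and 47 of 99 changed by 1, with 10 false calls. A gene that was not called may therefore still differ.

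Total counts ranged from 1117566 to 27538119. Embryos were grouped by label. Each embryo is a separate sample. Libraries of 1 genotype differed by more than counting noise, with a chi-square per degree of freedom of at least 2.78. The members and lists were chosen with earlier results of these data known. Named genes were the members, other Fgf genes with at least 1 CPM on average in either genotype, the called genes and 2 most abundant genes of each list, the 3 genes nearest in course to each called member and to Fgf4, and markers beside a result. A gene of the kinase list that this rule names is not reported here. Sox2, the overlapping genes and the 2 other genes with the composite word were added after their values were seen. Alternatives were DESeq2 1.42.0, limma-voom (limma 3.58.1), other scalings and filters, a robust spread, thinned SO+ libraries (10 draws), a replicate block and each embryo left out.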

Additional observations from a re-analysis of the deposited data

How the results depend on the processing

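Over all genes, 283 were called, 91 by limma-voom and between 35 and 573 with 1 embryo left out. Of the members, 3 were called, and between 1 and 3 with 1 embryo left out, with Fgf8 called each time. Of the pathway genes, 4 were called, and between 0 and 6 with 1 embryo left out. The replicate number as a block gave 929 genes and 5 members, adding Fgf4 (log2 fold change −2.51, adjusted p = 0.00571 by edgeR) and Fgf15 (−0.84, adjusted p = 0.00438). The labels give replicate numbers and state no pairing. Same-numbered embryos correlated at 0.0077 and 0.115 in their deviations from the genotype means. With 2 SO+ embryos these deviations mirror each other, so the correlations cannot decide whether the numbers mark pairs. Under the block Fgfr3 turned to 0.18 and Fgfr4 to 0.26. Fgf3 turned to −0.0031 with DESeq2 and −0.0065 with a filter of at least 1 count. With 1 embryo left out, log2 fold changes ranged from −0.74 to 1.78 for Fgf3, −0.17 to 0.090 for Fgfr1, −0.39 to 0.46 for Fgfr3 and −0.69 to 0.34 for Fgfr4, the difference in Fgf3 share from −4.20 to 0.885 percentage points, and that of the receptor sum from −3.95 to 9.13 CPM. The causes were not tested. Pou5f1 missed the threshold in limma-voom (adjusted p = 0.0639) and with a robust spread (0.0988). Thinning the SO+ libraries to the mean SO- depth left the same number of members called, 3. Depth limits Fgf4, Fgfr2, Fgf3 and Fgfr4 most, with 2, 5, 7 and 9 counts in SO- embryo 2.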
